A study of Mus musculus with 3 samples.

Results

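Barcodes with myeloid transcripts were found in a library labelled as CD4+ T cells from BALB/c heart allografts. They were selected by raw counts of unique molecular identifiers (UMIs, each marking 1 captured transcript). A barcode of the heart library had to reach 1000 UMIs and 500 genes, with mitochondrial genes taking no more than 10% of its UMIs. It was taken when it also held at least 3 UMIs of Lyz2 (lysozyme of granulocytes, monocytes and macrophages) and at least 5 of Cd74 (the invariant chain of MHC class II). Of 4074 barcodes that passed the limits on depth, 71 were taken, or 1.74% (exact 95% Clopper-Pearson interval 1.36% to 2.19%). These divided by the summed UMIs of 7 T cell genes (Cd3d, Cd3e, Cd3g, Trac, Trbc1, Trbc2 and Cd4) into 17 barcodes with at most 5, called T-low myeloid cells here, and 54 with over 5, called T-high barcodes. The T-high barcodes carried T cell genes at high levels beside the myeloid genes, so they are named by the rule and not as a cell type. Heart T cells, the comparison, were the 3990 barcodes with at most 1 Lyz2 UMI and over 5 T cell UMIs. Since the 3 groups were chosen by values of the same cells, every difference between them is a description of size without a test, and there was 1 library per group.

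The libraries came from C57BL/6 mice given congenically marked naive TEa CD4+ T cells, whose transgenic T cell receptor recognises the I-Eα alloantigen of BALB/c mice, and then a BALB/c heart. On day 7 the TEa cells were sorted with fluorochrome-conjugated antibodies. The heart library, which holds all the groups compared here, was of wild-type TEa cells from heart allografts. Wild-type TEa cells of the spleen formed another library, and that of Ldha-/- TEa cells of the spleen was not analysed here. The number, sex and age of the mice were not given in the sources used here, so the 71 barcodes may come from 1 animal or several.

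Monocytes leave the blood for an inflamed graft and become macrophages or antigen-presenting cells there. MHC class II molecules on these cells show peptides to CD4+ T cells, with Cd74 guiding the peptide-binding chains through the cell and H2-DM loading the peptide. Activated CD4+ T cells secrete interferon gamma, which raises MHC class II, guanylate-binding proteins and the chemokines Cxcl9 and Cxcl10 in myeloid cells, and those chemokines attract T cells through the receptor Cxcr3.

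The promoters of H2-Aa, H2-Eb1, Cxcl9 and Cxcl10 are shown since these class II and chemokine genes stood at high levels in T-low myeloid cells. Each is the 250 bases before and the first 50 after the gene's start in RefSeq (GRCm38.p6), 5′ to 3′ on the gene's strand. H2-Aa lies at chr17:34287774-34288073 (minus strand), H2-Eb1 at chr17:34305617-34305916 (plus strand), Cxcl9 at chr5:92328030-92328329 (minus strand) and Cxcl10 at chr5:92348840-92349139 (minus strand). Capitals mark each match on either strand to CTGATTGG, the Y box of class II promoters, and to GAAANNGAA, a core of the elements bound by interferon regulatory factors (IRFs).
H2-Aa: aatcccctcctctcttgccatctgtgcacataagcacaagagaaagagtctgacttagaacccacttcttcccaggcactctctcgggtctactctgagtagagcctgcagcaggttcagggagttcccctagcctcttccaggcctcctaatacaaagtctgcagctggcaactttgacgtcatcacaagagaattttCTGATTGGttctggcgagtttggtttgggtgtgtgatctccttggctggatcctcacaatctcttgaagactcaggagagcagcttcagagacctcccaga
H2-Eb1: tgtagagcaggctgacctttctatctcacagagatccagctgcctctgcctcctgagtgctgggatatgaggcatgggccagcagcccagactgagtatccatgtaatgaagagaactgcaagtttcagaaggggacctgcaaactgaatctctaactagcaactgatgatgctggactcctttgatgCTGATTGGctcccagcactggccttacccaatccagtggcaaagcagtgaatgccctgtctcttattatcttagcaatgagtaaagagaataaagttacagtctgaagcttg
Cxcl9: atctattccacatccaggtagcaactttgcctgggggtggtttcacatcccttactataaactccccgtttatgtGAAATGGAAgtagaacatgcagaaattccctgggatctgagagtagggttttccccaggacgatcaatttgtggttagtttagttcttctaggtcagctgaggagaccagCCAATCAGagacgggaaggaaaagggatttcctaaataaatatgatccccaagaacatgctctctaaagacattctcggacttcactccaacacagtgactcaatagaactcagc
Cxcl10: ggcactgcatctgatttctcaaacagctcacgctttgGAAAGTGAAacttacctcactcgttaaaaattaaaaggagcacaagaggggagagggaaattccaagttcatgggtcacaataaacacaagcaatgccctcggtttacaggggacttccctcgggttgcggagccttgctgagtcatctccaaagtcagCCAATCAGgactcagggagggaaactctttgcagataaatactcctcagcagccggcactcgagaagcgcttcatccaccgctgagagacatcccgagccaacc
H2-Aa and H2-Eb1 each held 1 Y box on the gene's strand and no IRF match. Cxcl9 and Cxcl10 each held 1 IRF match and 1 Y box in the reverse direction, and the 2 motifs did not overlap in either promoter. Over 27025 mouse promoters of the same length, 4.31% held the Y box and 8.57% the IRF core. Of the genes on the interferon gamma list with a promoter in the table, 10 of 13 held the IRF core. Of the class II list, 3 of 9 held the Y box, in H2-Aa, H2-Eb1 and H2-Oa. A match describes letters in the window and no binding.

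The 2 sets did not meet on the T cell count. T-low myeloid cells held 0 to 2 UMIs of the 7 T cell genes (median 0), T-high barcodes 47 to 1090 (median 195) and heart T cells 8 to 694 (median 105). Lyz2 ran from 4 to 540 UMIs in T-low cells (median 121) and from 4 to 770 in T-high barcodes (median 67.5). Cd74 ran from 14 to 656 UMIs in T-low cells (median 104) and from 7 to 830 in T-high barcodes (median 183.5). The 71 barcodes therefore began just inside the limits, at 4 Lyz2 UMIs and 7 Cd74 UMIs. Just outside them, 3 barcodes had 2 Lyz2 UMIs, and 3 barcodes with 433, 305 and 240 Lyz2 UMIs missed the Cd74 limit with 1, 3 and 0 Cd74 UMIs.

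**Figure D1:**
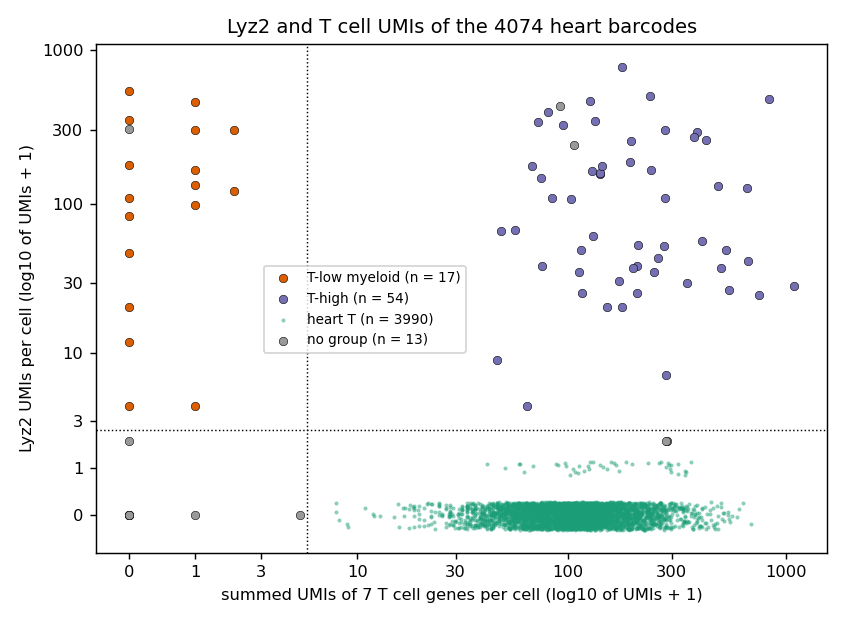
Lyz2 UMIs (vertical) against the summed UMIs of 7 T cell genes (horizontal) in each of the 4074 heart barcodes that passed the limits on depth, each point 1 barcode, on log axes. The 17 T-low myeloid cells lie at 0 to 2 T cell UMIs and the 54 T-high barcodes at 47 or more, with none between, while the 3990 heart T cells lie along the bottom.

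Total UMIs differed as well. T-low myeloid cells held 1582 to 21514 UMIs (median 13462), T-high barcodes 15581 to 97208 (median 29577) and heart T cells 1294 to 69749 (median 8243.5). The median T-low cell and the median heart T cell add up to 21705.5 UMIs, and 46 of the 54 T-high barcodes held more than that. Of the heart T cells, 120 (3.01%) held more UMIs than the median T-high barcode. The median number of genes was 2850 in T-low cells, 4608 in T-high barcodes and 2150.5 in heart T cells. Ribosomal protein genes took 14.2% of all UMIs in T-low cells and 27.2% in heart T cells, with T-high barcodes between them. No barcode was removed as a doublet (2 cells in 1 droplet), and how far doublets make up the T-high barcodes was not tested.

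Levels below are counts per 1000000 summed UMIs of a group (CPM), with exact 95% Poisson intervals. These and all other intervals cover counting error only. The summed UMIs were 206162 for T-low cells, 2030147 for T-high barcodes and 42371660 for heart T cells. A count of 0 therefore allows up to 14.6 CPM in T-low cells, 1.48 in T-high barcodes and 0.0708 in heart T cells (3 counts). Free RNA was read from 664794 barcodes of at most 100 UMIs in the same library. A gene was called when it stood at least 4-fold apart on log2(CPM + 1), which understates the change of low genes, with at least 50 CPM in either group. Of 3126 genes so tested between T-low myeloid cells and heart T cells, 507 (16.2%) were called higher and 328 (10.5%) lower. The counts of called genes in each list below are to be read against these shares. A gene near 0 in 1 group passes the 50 CPM floor only through the other and is then called by the limits themselves. Counts for lists near 0 in 1 group are therefore a description only. The median log2 difference of all tested genes was 0.01. The 15 named genes that stood highest over heart T cells were Lyz2, Chil3, Cd14, Cxcl9, Cxcl2, C1qb, Tyrobp, Fcer1g, Wfdc17, Upp1, C1qa, C1qc, Plaur, Cd74 and Ifi205. Plaur, the receptor of urokinase, had 999 CPM in T-low cells, 348 in T-high barcodes and 0.802 in heart T cells. Upp1, a uridine phosphorylase, had 863, 343 and 0.260 CPM, and Ifi205, an interferon-induced gene, had 771, 304 and 0.448 CPM.

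The 6 marker genes that go with the label were all present. Lyz2 stood at 14212 CPM in T-low cells (13702 to 14736), 3917 in T-high barcodes (3832 to 4005) and 1.04 in heart T cells (0.755 to 1.39). Cd74 stood at 11719, 5677 and 20.3 CPM in T-low cells, T-high barcodes and heart T cells. H2-Aa, the alpha chain of the class II molecule I-A, had 3056 CPM in T-low cells (2822 to 3304), 1674 in T-high barcodes (1618 to 1731) and 8.28 in heart T cells. Per cell, H2-Aa ran from 0 to 192 UMIs in T-low cells (median 26), from 0 to 230 in T-high barcodes (median 49) and from 0 to 177 in heart T cells (median 0). It was detected in 16 of 17 T-low cells, 50 of 54 T-high barcodes and 35 of 3990 heart T cells. The rule used Lyz2 and Cd74 themselves, so their levels are no finding, and that of H2-Aa is not independent of the Cd74 limit. On GRCm38 (GENCODE M21), Lyz2 lies at chr10:117277331-117282321, H2-Aa at chr17:34282744-34287823, Chil3 at chr3:106147554-106167564, Il1b at chr2:129364570-129371139 and Cxcl9 at chr5:92321347-92328079, all on the minus strand.

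Il1b, which encodes the inflammatory cytokine interleukin 1β, had 1703 CPM in T-low cells (1529 to 1890), 1218 in T-high barcodes (1171 to 1267) and 2.76 in heart T cells. It was uneven within both sets, from 0 to 92 UMIs in T-low cells (median 11) and from 0 to 277 in T-high barcodes (median 20). With every cell thinned to 1000 UMIs, 47.1% of T-low cells (exact 95% interval 23.0% to 72.2%), 46.3% of T-high barcodes (32.6% to 60.4%) and 0.150% of heart T cells held an Il1b UMI, while the shares before thinning were 64.7%, 77.8% and 0.476%. The heart T share is no full measure of background, since those cells were chosen for at most 1 Lyz2 UMI. The 6 marker genes, Lyz2 and Cd74 included, summed to 33.5 CPM in heart T cells and 795 CPM in the free RNA. Chil3, a chitinase-like protein of recruited monocytes and activated macrophages, had 3939 CPM in T-low cells (3672 to 4219), 561 in T-high barcodes (528 to 594) and 1 UMI in all heart T cells. It ran from 0 to 211 UMIs per T-low cell (median 11) and from 0 to 262 per T-high barcode (median 3).

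Other identity genes were mostly those of monocytes and macrophages. On the monocyte list, 7 of 8 tested genes were called higher in T-low cells than in heart T cells and 0 lower, with a median log2 difference of 6.31. The exception was Plac8, with 4443 CPM in T-low cells, 2382 in T-high barcodes and 1477 in heart T cells. Ly6c2, the surface marker of inflammatory monocytes, had 1741, 521 and 170 CPM in T-low cells, T-high barcodes and heart T cells. Ccr2, the receptor through which monocytes leave the bone marrow and enter tissue, had 422, 202 and 67.4 CPM. All 10 tested genes of the macrophage list were called higher, with a median log2 difference of 8.09. That list summed to 8.38 CPM in heart T cells, so its genes passed the floor only through T-low cells, and the limits fixed these calls. Csf1r, the receptor for the growth factor of macrophages, had 252 CPM in T-low cells, 116 in T-high barcodes and 0.189 in heart T cells. Adgre1, which encodes F4/80, had 146, 43.3 and 0.0236 CPM in the same order of groups.

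Markers of other cell types were read next. Flt3, Zbtb46 and Itgax, the general dendritic cell markers used here, had 0 UMIs in T-low cells and 13.8 CPM summed in T-high barcodes, against 1.70 in heart T cells. The list for type 1 dendritic cells, however, summed to 53.4 CPM in T-low cells (11 UMIs in 4 of 17 cells), 21.7 in T-high barcodes and 0.142 in heart T cells. The list for type 2 dendritic cells summed to 14.6 CPM in T-low cells (3 UMIs), 4.43 in T-high barcodes and 0.118 in heart T cells. Markers of non-classical monocytes summed to 97.0 CPM in T-low cells (9 of 17 cells), 79.8 in T-high barcodes and 40.0 in heart T cells. Of these 4 markers, 2 were at 0 in T-low cells, and Pou2f2 alone gave 77.6 CPM there. Plasmacytoid dendritic cell markers had 1 UMI each in T-low and in T-high barcodes. Those of migratory dendritic cells had 0 UMIs in T-low cells, 43.8 CPM in T-high barcodes and 73.3 CPM in heart T cells. Nearly all of this was Ccr7, with 43.3 CPM in T-high barcodes and 71.1 in heart T cells, so the list describes little else there. Timd4, Lyve1, Folr2 and Cd163, which mark resident cardiac macrophages, had 0 UMIs in T-low cells and 0.985 CPM summed in T-high barcodes. Of the 7 neutrophil markers, 5 were at 0 in T-low cells, S100a9 among them, and the list summed to 150.4 CPM there, 88.2 in T-high barcodes and 1.77 in heart T cells. S100a8 was in 7 of 17 T-low cells with at most 7 UMIs, and 1 T-high barcode held 83 UMIs. The marker lists of B cells, plasma cells, NK cells, mast cells, cardiomyocytes, fibroblasts, endothelium, erythroid cells and platelets were all at 0 in T-low cells and at 0 to 6.40 CPM each in T-high barcodes. The 7 T cell genes summed to 48.5 CPM in T-low cells (23.3 to 89.2), 6999 in T-high barcodes and 11560 in heart T cells, against 9983 CPM in the free RNA. The rule set the groups apart on these 7 genes, so this difference is no finding.

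Genes of antigen presentation by MHC class II stood far above heart T cells in T-low myeloid cells and in T-high barcodes. All 8 tested genes of the class II list were called higher in T-low cells than in heart T cells, with a median log2 difference of 8.41. The share called higher over all tested genes was 16.2%. Cd74 is on this list and was used by the rule, so its part is no finding. The 3 barcodes with 433, 305 and 240 Lyz2 UMIs that missed the Cd74 limit held 1, 0 and 0 H2-Aa UMIs. The levels of the other class II genes are thus not independent of the rule either. The list summed to 28691 CPM in T-low cells, 14037 in T-high barcodes and 374.7 in heart T cells. Of these sums, Cd74 gave 11719 CPM in T-low cells and 5677 in T-high barcodes. H2-Ab1, the beta chain that pairs with H2-Aa, had 2 to 278 UMIs per T-low cell (median 28) and 1 to 342 per T-high barcode (median 61.5), so all 71 barcodes held it. Its level was 4448 CPM in T-low cells (4165 to 4745), 2014 in T-high barcodes and 9.35 in heart T cells. H2-Eb1, the beta chain of I-E, had 3551 CPM in T-low cells (3298 to 3817), 1866 in T-high barcodes and 9.11 in heart T cells. H2-DMb1, a chain of the peptide loader H2-DM, had 708, 308 and 0.637 CPM in T-low cells, T-high barcodes and heart T cells. Ctss, the protease that trims Cd74 off the class II groove, had 2707, 1448 and 208 CPM. Ciita, the class II transactivator, was barely sampled, with 2 UMIs in 1 T-low cell and 18 in 13 T-high barcodes.

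MHC class I presentation, which all nucleated cells carry out, stood closer between the groups. None of the 8 tested genes of that list was called in either direction between T-low cells and heart T cells, and the median log2 difference was 0.60. Of all tested genes, 16.2% were called higher and 10.5% lower. B2m, the light chain of class I, had 4264 CPM in T-low cells, 3049 in T-high barcodes and 2482 in heart T cells. H2-K1, a heavy chain, had 3444, 3488 and 3379 CPM.

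Of 16 tested genes induced by interferon gamma, 14 were called higher in T-low cells than in heart T cells and 0 lower, with a median log2 difference of 3.68. Cxcl9 ran from 0 to 129 UMIs per T-low cell (median 13), from 0 to 194 per T-high barcode (median 24) and from 0 to 10 per heart T cell (median 0). It was in 13 of 17 T-low cells and 50 of 54 T-high barcodes. Its level was 2241 CPM in T-low cells (2041 to 2455), 1033 in T-high barcodes (990 to 1079) and 1.09 in heart T cells (0.795 to 1.45), against 45.4 CPM in the free RNA. With every cell thinned to 1000 UMIs, 58.8% of T-low cells (32.9% to 81.6%), 48.1% of T-high barcodes (34.3% to 62.2%) and 0.100% of heart T cells held a Cxcl9 UMI, and without thinning 76.5%, 92.6% and 0.351% did.

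Cxcl10 had 2304 CPM in T-low cells (2101 to 2521), 1181 in T-high barcodes and 6.07 in heart T cells. Gbp2, a guanylate-binding protein that attacks microbe-holding vacuoles, had 2396, 683 and 67.2 CPM in T-low cells, T-high barcodes and heart T cells. Nos2, which makes nitric oxide, was limited to some cells, with UMIs in 5 of 17 T-low cells and 30 of 54 T-high barcodes, and levels of 238, 166 and 0.189 CPM. Its T-low level was 143 CPM without the cell that held 44.9% of its UMIs, and T-high over T-low the log2 difference of Nos2 then turned to 0.21, against -0.52 with that cell. Socs1, an inhibitor of cytokine signalling, had 495, 174 and 51.8 CPM. Igtp, a GTPase of the same response, had 136, 202 and 142 CPM and was not called. All 4 tested genes of the type I interferon list were called higher in T-low cells, with a median log2 difference of 2.84. Isg15, a ubiquitin-like protein, had 834 CPM there, 355 in T-high barcodes and 137 in heart T cells.

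The T cell side of the same signal was sampled in the other cells. Ifng had 0 UMIs in T-low cells, 51.2 CPM in T-high barcodes (24 of 54 cells) and 94.1 CPM in heart T cells, where it was in 1179 of 3990. Ifng was thus at least 6.47-fold lower in T-low cells than in heart T cells, taking 3 counts as the floor of the group. Cxcr3, the receptor of Cxcl9 and Cxcl10, had 0 UMIs in T-low cells, 95.6 CPM in T-high barcodes and 165 CPM in heart T cells, at least 11.3-fold lower in T-low cells. The receptor chains for interferon gamma stood apart from each other. Ifngr1 had 121 CPM in T-low cells (78.5 to 179), 456 in T-high barcodes and 808 in heart T cells. Ifngr2 had 160 CPM in T-low cells (110 to 225), 55.2 in T-high barcodes and 2.31 in heart T cells. Of the 7 tested receptors for T cell cytokines, 5 were called higher in T-low cells and 1 lower, which was Ifngr1. Csf2ra, a chain of the GM-CSF receptor, had 306, 102 and 1.49 CPM in T-low cells, T-high barcodes and heart T cells.

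Among the chemokines, 13 of 14 tested genes were called higher in T-low cells and 0 lower, with a median log2 difference of 7.09. Of the T-low UMIs, 1 cell each held 100% of Cxcl3, 85.0% of Ccl7 and 55.0% of Ccl8. Without that cell these genes had 0, 29.5 and 44.4 CPM, under the floor. Cxcl2, which attracts neutrophils, had 1407, 908 and 0.566 CPM in T-low cells, T-high barcodes and heart T cells. Ccl2, which attracts monocytes through Ccr2, had 548 CPM in T-low cells (452 to 659), 587 in T-high barcodes (554 to 621) and 0.165 in heart T cells. Cxcl16, the ligand of Cxcr6, had 213 CPM in T-low cells (155 to 287), 207 in T-high barcodes (188 to 228) and 1.30 in heart T cells. Cxcr6 itself had 0, 217 and 334 CPM in these groups. Ccl5 was the gene not called, with 766 CPM in T-low cells, 712 in T-high barcodes and 524 in heart T cells, and 1 T-low cell held 73 of the 158 T-low UMIs. Ccl17, Ccl22 and Cxcl1 had 0 UMIs in T-low cells.

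Of 7 tested cytokine genes, 6 were called higher in T-low cells and 0 lower. Il1rn, the natural antagonist of interleukin 1, had 529, 267 and 0.354 CPM in T-low cells, T-high barcodes and heart T cells. Tnf, an inflammatory cytokine, had 325, 92.1 and 11.2 CPM. Tgfb1, the gene not called, had 252, 283 and 225 CPM. Il10, Il12a, Il12b and Il23a had 0 UMIs in T-low cells. Il10 had 14.3 CPM in T-high barcodes and 26.8 in heart T cells, and was at least 1.84-fold lower in T-low cells than in heart T cells.

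Ligands that costimulate or restrain T cells were sampled by few UMIs. Of 5 tested, 3 were called higher in T-low cells, against 16.2% of all tested genes. Cd86, which binds Cd28 and Ctla4, had 320 CPM in T-low cells (248 to 407), 133 in T-high barcodes and 18.2 in heart T cells. Cd40 had 112, 66.5 and 0.307 CPM in T-low cells, T-high barcodes and heart T cells. Cd274, which encodes the inhibitory ligand PD-L1, had 262, 201 and 32.4 CPM and was in 16 of 17 T-low and 53 of 54 T-high barcodes. Icosl, Pdcd1lg2, Tnfsf4 and Cd70 had 0 UMIs in T-low cells. The T cell partners lay on the other side: 8 of 11 tested were called lower in T-low cells and 2 higher, which were Ccr2 and Tnf, genes that myeloid cells also use. Cd28 had 0 UMIs in T-low cells, 280 CPM in T-high barcodes and 442 CPM in heart T cells, and Cd40lg had 0 UMIs in T-low cells and 18.7 CPM in T-high barcodes. Icos had 1 UMI in T-low cells, 659 CPM in T-high barcodes and 957 CPM in heart T cells.

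Fc receptors and complement made up another block, with 12 of 12 tested genes called higher in T-low cells. The list summed to 12.4 CPM in heart T cells, so its genes passed the floor only through T-low cells, and the limits fixed these calls. Fcer1g, the signalling chain shared by Fc receptors, had 4 to 92 UMIs per T-low cell (median 52) and 15 to 244 per T-high barcode (median 65), so all 71 barcodes held it. Its level was 4361 CPM in T-low cells (4080 to 4655), 1942 in T-high barcodes and 4.30 in heart T cells. Tyrobp, an adaptor of activating receptors, had 2969, 1015 and 2.43 CPM. C1qb, a chain of complement C1q, had 1678, 751 and 0.920 CPM, but sat in 7 of 17 T-low cells and 28 of 54 T-high barcodes. Of the T-low C1qb UMIs, 48.8% came from 1 cell.

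Lysosomal and phagocytic genes (8 of 9 tested), pattern receptors (7 of 9) and repair and scavenging genes (5 of 5) were called higher in T-low cells, and none lower. Over all tested genes the share called higher was 16.2%. The repair and scavenging list summed to 7.34 CPM in heart T cells, so the limits fixed its calls. Ctsc, a protease that activates granule enzymes, had 3890, 1464 and 58.4 CPM in T-low cells, T-high barcodes and heart T cells. Cd14, the co-receptor for endotoxin, had 1785, 760 and 0.543 CPM. Hmox1, which degrades haem, had 1931, 663 and 4.37 CPM, with 54.3% of its T-low UMIs in 1 cell. Myeloid transcription factors were called higher in 7 of 8. Spi1, the master factor PU.1, was in all 17 T-low and all 54 T-high barcodes, at 626, 227 and 0.684 CPM in T-low cells, T-high barcodes and heart T cells. Cebpb, which drives emergency myeloid output, had 3061, 1324 and 181 CPM.

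In glycolysis, the pathway that ends in the product of Ldha, 2 of 14 tested genes were called higher in T-low cells and 0 lower, while 16.2% of all tested genes were called higher. The median log2 difference of the list was 0.53. Ldha, which turns pyruvate into lactate, had 737 CPM in T-low cells (625 to 864), 1058 in T-high barcodes (1014 to 1104) and 1051 in heart T cells. Both called genes were transporters. Slc2a1, a glucose transporter, had 165, 100 and 23.5 CPM in T-low cells, T-high barcodes and heart T cells, and Slc16a3, which exports lactate, had 272, 217 and 45.5 CPM. Proliferation genes were called lower in T-low cells in 7 of 7, against 10.5% of all tested genes. Their median log2 difference was -6.28, or -3.23 with genes at 0 set to their floor. Mki67, a marker of cycling cells, had 2 UMIs in T-low cells, 58.1 CPM in T-high barcodes and 108 CPM in heart T cells.

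Leaving out receptor genes, mitochondrial, ribosomal protein and unnamed genes, the 10 called genes that stood lowest in T-low cells against heart T cells were all at 0 there. They were Ctla2a, Xist, Ptprcap, Cd2, Nkg7, Tnfrsf4, Lat, Lck, Cd28 and Ets1. Ctla2a, a protease inhibitor of activated T cells, had 910 CPM in T-high barcodes and 1701 in heart T cells and was at least 117-fold lower in T-low cells than in heart T cells. Lck, the kinase that starts T cell receptor signalling, was at least 30.9-fold lower. Trac, the constant region of the receptor's alpha chain and a gene of the rule, was at least 177-fold lower. All 10 tested T cell genes outside the rule were called lower. Their list held 3 UMIs in T-low cells, so they passed the floor only through heart T cells. The rule set the groups apart on T cell genes, so this count is no separate finding. The free RNA of the library held 2091 CPM of Ctla2a and 1465 CPM of Trac.

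T-high barcodes and T-low myeloid cells were then set against each other. Of 3008 genes tested, 204 (6.78%) were called higher in T-high barcodes and 18 (0.598%) lower. The median log2 difference of all tested genes was 0.03. By the same limits on kinds of genes, those called higher and farthest apart were Ctla2a, Xist, Cd2, Ptprcap, Tnfrsf4, Nkg7, Pmepa1 and Lat. Those called lower and farthest apart were Cxcl3, Edn1, Ccl8, Plk2, Apoe, Mmp8, Chil3 and Trem2. Cxcl3 and Edn1 came from 1 T-low cell each, and 1 cell gave 51.4% of Apoe, 90.9% of Mmp8, 76.9% of Plk2 and 55.0% of Ccl8, so these rest on few cells. Without its T-low cell, the log2 difference of Cxcl3 was 1.79 and that of Edn1 was 0.58. Chil3 was spread over 10 T-low cells, and its log2 difference was -2.81.

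Lists of myeloid genes lay below their T-low levels in T-high barcodes. The median log2 difference, T-high over T-low, was -1.07 for class II genes, -0.98 for interferon gamma genes, -0.80 for chemokines, -1.06 for Fc receptors and complement, -1.11 for lysosomal genes and -1.13 for myeloid transcription factors. None of the 8 tested class II genes, Cd74 of the rule among them, was called between the 2 sets. Of all tested genes 0.598% were called lower, so a count of 0 lower is near that share. The monocyte list was at -1.71, with 3 of 8 genes called lower. T cell genes outside the rule were at 7.61, or 4.32 with T-low genes at 0 set to their floor, and 10 of 10 were called higher. The rule set these groups apart on T cell genes too, so this count is no separate finding. Glycolysis genes were at -0.06.

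A wider reading used 282 genes at least 16-fold higher in T-low cells than in heart T cells, called myeloid-side genes, and 140 genes at least 16-fold lower, called T-side genes. These genes were chosen on the T-low and heart T values that are also the denominators below, and Lyz2, Cd74, Cd3d, Cd3e, Cd3g and Cd4, which the rule used to take the barcodes, are among them. The percentages are therefore a description that rests in part on values of the rule. In T-high barcodes the median myeloid-side gene stood at 43.0% of its T-low level (interquartile range 35.2% to 52.6%, full range 0.846% to 352%). The median T-side gene stood at 62.8% of its heart T level (interquartile range 56.0% to 71.7%, full range 28.5% to 105%). Summed over genes, the myeloid side was at 42.7% and the T side at 61.0%, which add up to 103.7%. Without the genes of the rule, the sums were at 43.9% and 61.3%. The gene at 352% was Saa3, an acute phase protein, with 205 CPM in T-high barcodes and 58.2 in T-low cells.

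The same sums were taken in each T-high barcode. The myeloid side ran from 13.4% to 87.3% of the T-low level (median 46.9%) and the T side from 10.3% to 90.5% of the heart T level (median 59.4%). Added up, they gave 73.9% to 136% per cell (median 104.5%). In 32 of 54 T-high barcodes the T side stood above the myeloid side. In UMIs rather than shares, T-high barcodes held a median of 2128.5 myeloid-side UMIs (1028 to 5261), against 2004 in T-low cells (131 to 3484). They held a median of 518.5 T-side UMIs (101 to 2697), against 274 in heart T cells (32 to 1934). The median T-high barcode thus held about as many myeloid-side UMIs as the median T-low cell, and more T-side UMIs than the median heart T cell. As a share of all UMIs, the myeloid side took 14.6% in T-low cells, 6.24% in T-high barcodes, 0.148% in heart T cells and 0.505% in the free RNA. The T side took 0.0238% in T-low cells, 1.96% in T-high barcodes, 3.22% in heart T cells and 3.26% in the free RNA.

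**Figure D2:**
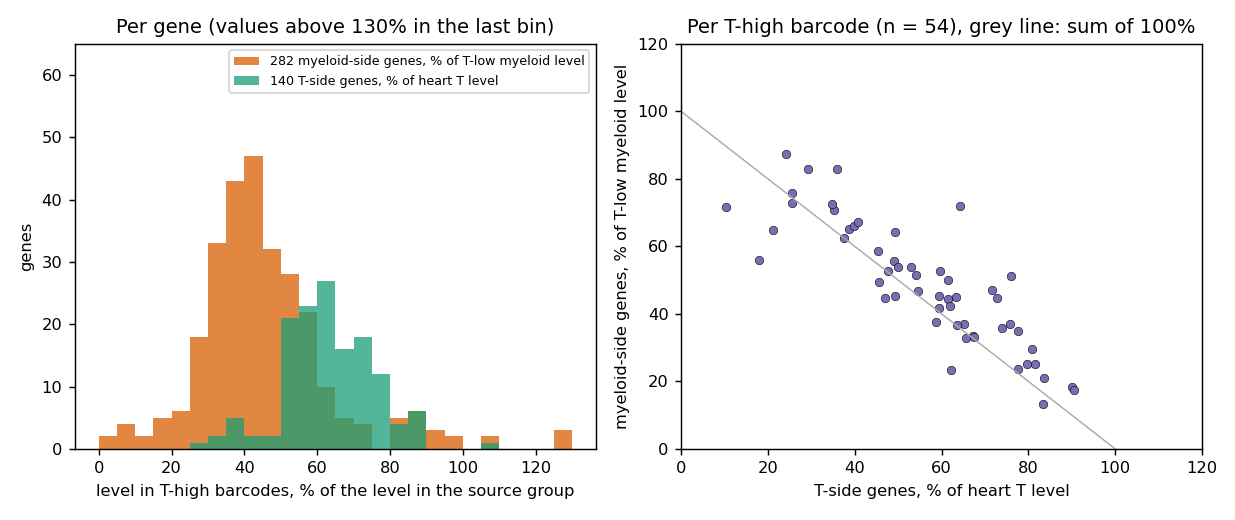
Left, how many of the 282 myeloid-side genes (as percent of their T-low level) and the 140 T-side genes (as percent of their heart T level) lie at each percent in T-high barcodes, with higher values placed in the last bin. Right, the same percentages summed over genes for each of the 54 T-high barcodes, myeloid side against T side, where the grey line marks a sum of 100%. The cells scatter along that line, with sums of 73.9% to 136%.

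Transcripts of the sex chromosomes separated the groups in another way. Xist is the RNA that silences an X chromosome in female cells. It was in 0 of 17 T-low cells, 54 of 54 T-high barcodes and 3860 of 3990 heart T cells. The exact 95% interval for T-low cells allows a share with an Xist UMI at this depth of up to 19.5%. That interval sets no limit on cells that express Xist. Per cell, Xist ran from 1 to 81 UMIs in T-high barcodes (median 9.5) and from 0 to 74 in heart T cells (median 7). The summed Y-linked genes Ddx3y, Eif2s3y, Kdm5d and Uty, expressed in male cells, were in 6 of 17 T-low cells, 45 of 54 T-high barcodes and 26 of 3990 heart T cells. Their level was 97.0 CPM in T-low cells, 69.0 in T-high barcodes and 1.94 in heart T cells. Xist and a Y-linked gene met in 0 T-low cells, 45 T-high barcodes and 17 heart T cells. After thinning to 1000 UMIs, Xist was in 0%, 22.2% and 55.9% of T-low cells, T-high barcodes and heart T cells, and a Y-linked UMI in 11.8%, 5.56% and 0.100%. Neither kind was found in 11 T-low cells, 0 T-high barcodes and 121 heart T cells. Free RNA held 550 CPM of Xist.

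**Figure D3:**
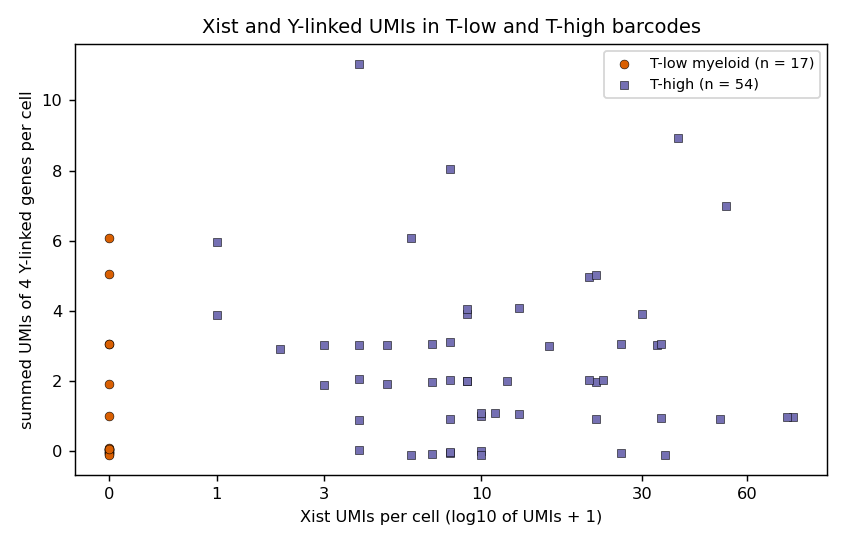
Summed UMIs of 4 Y-linked genes (vertical, points jittered) against Xist UMIs (horizontal, log axis) in each of the 17 T-low myeloid cells and 54 T-high barcodes. T-low cells lie at 0 Xist UMIs, and 45 of 54 T-high barcodes have both kinds.

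The receptor segments of the T cells were examined in the T-high barcodes. TEa receptors use the beta segment Trbv19 (Vβ6) and an alpha segment of the Trav14 family (Vα2). All 46 Trbv UMIs of T-high barcodes were of Trbv19 (exact 95% interval 92.3% to 100%), against 1398 of 1594 (87.7%) in heart T cells. Trav14 family segments gave 76 of 91 Trav UMIs (83.5%) in T-high barcodes, against 2871 of 3645 (78.8%) in heart T cells. T-low cells had 0 UMIs of either. The T-high intervals cover few UMIs, and no difference from heart T cells was tested.

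C1q and Chil3 were read for how they varied within the sets. The 3 C1q genes were found in 7 of 17 T-low cells, and the 5 cells with at least 50 C1q UMIs held 94.3% of them. In T-high barcodes C1q was in 30 of 54, and 12 cells held 92.6%. Chil3 was in 10 of 17 T-low cells, 5 of which held 84.6% of its UMIs, and in 30 of 54 T-high barcodes, 7 of which held 68.0%. C1q and Chil3 were found together in 2 of 17 T-low cells and 16 of 54 T-high barcodes. These counts were not thinned. The T-low cells with C1q and no Chil3 held 3085, 21514, 3565, 7846 and 1582 UMIs, while those with Chil3 held 11427 to 18094. How far depth gives this pattern was not tested. Ly6c2 was in 10 of 10 T-low cells with Chil3, and in 14 of 17 T-low cells in all. It was in 30 of 30 T-high barcodes with Chil3, and in 49 of 54 T-high barcodes in all. Heart T cells held Ly6c2 as well, and how far T cell RNA gives these T-high counts was not tested.

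Correlations across cells are given as a description, since the cells share 1 library and the shares a common denominator. T-low cells with and without Chil3 also differed in depth, as given above. As shares of the myeloid-side UMIs of each cell, C1q and Chil3 had a Spearman rho of -0.64 over 17 T-low cells and -0.17 over 54 T-high barcodes. Chil3 and Ly6c2 had a rho of 0.73 over T-low cells and 0.60 over T-high barcodes. H2-Aa and Chil3 had a rho of -0.56 over T-low cells and -0.54 over T-high barcodes. C1q and Ly6c2 had a rho of -0.66 over T-low cells and -0.32 over T-high barcodes. In these cells the Chil3 and Ly6c2 values went together, and those of Chil3 and H2-Aa apart, in both sets. Ly6c2, at a log2 difference of 3.35 over heart T cells, is not a myeloid-side gene, so its value is a ratio to those UMIs. How far T cell RNA gives the Ly6c2 of T-high barcodes was not tested. The value for C1q and Chil3 in T-high barcodes was weak and is no finding. More pairs were read than are given here, and some changed sign between the sets. Chil3 and Il1b had a rho of 0.28 over T-low cells and -0.33 over T-high barcodes, and C1q and Nos2 0.12 and -0.19.

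Single T-low cells show the range. The cell with the most C1q held 438 C1q UMIs, 0 of Chil3, 1 of Ly6c2 and 192 of H2-Aa among 21514 UMIs. The cell with the most Chil3 held 211 Chil3 UMIs, 34 of Ly6c2, 540 of Lyz2, 0 of C1q and 0 of H2-Aa among 15192 UMIs. The cell with the most Cxcl9 held 129 Cxcl9 UMIs and 133 of Chil3, with 22 of Nos2. Apoe, a lipid carrier of mature macrophages, was concentrated in cells holding 110 and 79 UMIs, of which the first also had 59 C1q UMIs and the second had none. These cells were picked for their extremes.

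**Figure D4:**
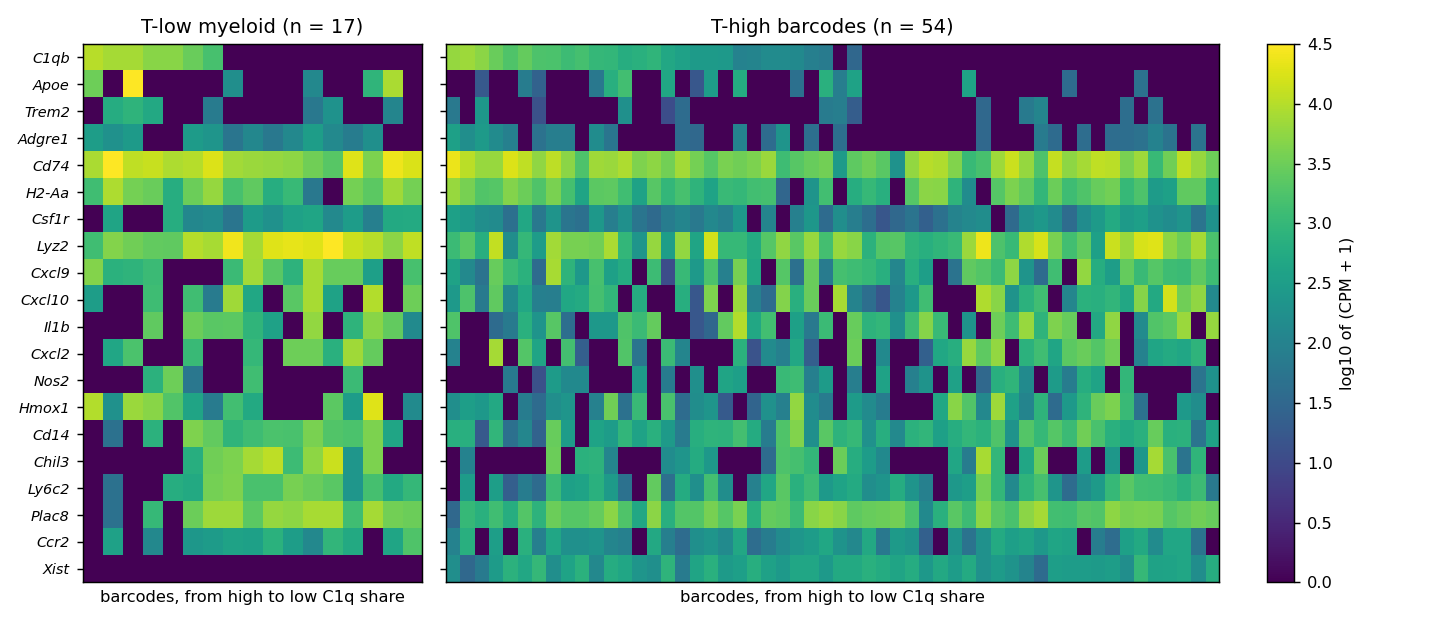
Levels of selected genes (rows) as log10(CPM + 1) in each of the 17 T-low myeloid cells (left) and the 54 T-high barcodes (right), with barcodes ordered from high to low C1q share. Chil3 and Ly6c2 fill mostly the cells without C1q in the T-low set. Cd74 and Lyz2 are filled throughout because the rule required them.

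In the spleen library of wild-type TEa cells, 1 of 6583 barcodes met the same limits (9821 UMIs), so myeloid levels could not be compared between organs. It held 80 UMIs of Lyz2, 53 of Cd74, 7 of Ace and 9 of Treml4, markers of non-classical monocytes, and 0 of Cxcl9, Chil3 or Il1b. No myeloid barcode of the heart was also among the barcodes that passed in the spleen library, and 6 barcodes in all passed in both.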

How the data were processed

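The authors deposited unnormalized UMI counts for each gene of each barcode. Per the file headers, Cell Ranger 3.0.2 made the matrices of wild-type cells. The submitters' processing notes list Cell Ranger as version 7.0.0, beside Seurat 4.0.0 and mm10. Whether intronic reads were counted is not given in the sources used here. Per the labels' protocols, the kit was a droplet kit that reads 3′ ends, and its text speaks of nuclei although cells were sorted. Doublets were not called. The library of Ldha-/- cells was not analysed here.

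Cells were chosen and their counts summed per group with numpy 2.4.6, scipy 1.17.1 and pandas 2.3.3. With 1 library per group and groups chosen on the same counts, no p-value was computed. Levels carry exact Poisson intervals and shares exact Clopper-Pearson intervals at 95%, both for counting error only. Promoters are from RefSeq (GRCm38.p6), gene positions from GENCODE. Genes were named by rule: the 15 highest and 10 lowest called genes of T-low cells against heart T cells, 8 each way between T-high barcodes and T-low cells, and, of each list, up to 6 genes of high mean CPM with those at 0. These leave out receptor segments and mitochondrial, ribosomal and unnamed genes. Saa3 and further list members were named for their role after their values were seen. The cells, gene lists and rules were chosen with earlier results of these data known.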

Additional observations from a re-analysis of the deposited data

How the results depend on the processing

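Counts of called genes moved with the settings, while the 3 groups stayed near their sizes over the limits tried (68 to 73 cells in all, 15 to 18 T-low, 53 to 55 T-high). Between T-low cells and heart T cells, thinning each cell to 1000 UMIs gave 1118 higher and 777 lower, a floor of 10 CPM gave 908 and 1067, a 2-fold limit gave 802 and 714, and a floor of 100 CPM left 166 lower. Totals without mitochondrial, ribosomal protein and Malat1 UMIs gave 506 higher and 573 lower, so that 46.9% of called genes were higher, against 60.7% in the report, and the median of all genes moved to -0.40. Between T-high barcodes and T-low cells, the counts were 983 higher and 728 lower after thinning, 843 and 88 at a floor of 10 CPM, 473 and 346 at 2-fold, and 90 and 11 at a floor of 100 CPM. A pseudocount of 10 CPM left 10 lower, the mean of per-cell CPM gave 44 lower, and the reduced totals gave 310 higher. After thinning, 1 UMI in T-low cells is 58.8 CPM, above the floor of 50 CPM, and some log2 differences changed sign. These were C3 (-0.32), Klf4 (-3.00), Plk2 (-1.32) and Mki67 (0.066) in T-low cells over heart T cells, and Mki67 (-1.62) and Plk2 (4.29) in T-high barcodes over T-low cells. Without the T-low cell richest in the gene, a setting chosen after seeing the data, Cxcl3 turned to -0.034 over heart T cells, and T-high over T-low cells Cxcl3 turned to 1.79 and Edn1 to 0.58. Smaller differences changed sign there too: of the named genes, 11 of 191 did so over heart T cells and 17 of 186 T-high over T-low, Cxcl3 and Edn1 included. Among them were Hspa1a (to -1.01 and 1.78), Ccl5 (to -0.19 and 0.63), Ccl7 (T-high over T-low, to 2.39), Atf3 (0.39) and C1qa (0.22). The T-side median was 56.2% under the reduced totals, also chosen after seeing the data. With the mean of per-cell CPM, the myeloid-side median was 50.4% and the T-side median 56.3%. T-low cells hold 206162 UMIs in all, so genes under 14.6 CPM could not be told from 0 there. No paired analysis was possible because there is 1 library per group.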

Other observations

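Of 5 tested genes of the list for dissociation and stress, 3 were called higher in T-low cells than in heart T cells and 0 lower, against 16.2% of all tested genes called higher. Fos, of the immediate early response, had 451 CPM in T-low cells, 372 in T-high barcodes and 23.2 in heart T cells. Jun had 388, 175 and 27.2 CPM, and Atf3 had 146, 59.6 and 4.30 CPM. Of the Atf3 UMIs in T-low cells, 70.0% came from 1 cell. Without it Atf3 had 45.4 CPM there, under the floor of 50 CPM but above heart T cells. The heat shock genes did not follow. Dnajb1 had 43.7 CPM in T-low cells, 82.8 in T-high barcodes and 106 in heart T cells. Hspa1a had 272, 124 and 72.2 CPM, but 87.5% of its T-low UMIs came from 1 cell, without which it had 35.3 CPM and lay below heart T cells. Ptgs2, the inducible cyclooxygenase, had 466 CPM in T-low cells, 205 in T-high barcodes and 2 UMIs in all heart T cells. Gzmb, a granzyme of cytotoxic cells, had 0 UMIs in T-low cells, 109 CPM in T-high barcodes and 336 in heart T cells. Ptgs2 and Gzmb were chosen after their values were seen.

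The rule left 13 barcodes in no group. Of the 3 that held many Lyz2 UMIs but few Cd74 UMIs, the cells with 433 and 240 Lyz2 UMIs held 92 and 107 T cell UMIs and the cell with 305 held none. The cells with 305 and 240 Lyz2 UMIs held 173 and 145 Chil3 UMIs. Another barcode, with 0 Lyz2 UMIs and 1 T cell UMI, held 253 Cd74, 114 H2-Aa, 58 Ccr7 and 17 Fscn1 UMIs, genes that migratory dendritic cells express together. A barcode with 40211 UMIs and 2 Lyz2 UMIs held 344 Cd74, 195 H2-Aa and 17 Ccr7 UMIs beside 282 T cell UMIs. Pairs of barcodes held the neutrophil genes S100a8 (33 and 17 UMIs) and S100a9 (7 and 37 UMIs) or the B cell gene Cd79a (5 and 10 UMIs).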
